A study of Drosophila melanogaster with 3 samples.

Results

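The Wingless pathway was examined in wings of *Drosophila melanogaster* pupae through 10 genes of different roles: the ligand gene wg, the secretion factor gene wls, the receptor genes fz2, fz3 and arr, the transducer genes arm and pan, the destruction complex genes sgg and Axn, and the feedback gene nkd. A probe set was counted for a gene when the platform annotation gave it that gene symbol and no other. By this rule 3 of the 10 genes were measured, with 1 probe set each: wls, Axn and nkd. The other 7 genes (wg, fz2, fz3, arr, arm, pan and sgg) were not analysed here. The 3 probe sets stand among 13647 that carried exactly 1 gene symbol, and these represented 11982 genes.

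All samples belonged to 1 group. Pupal wings of Oregon R flies, close to 80 h after puparium formation, were profiled on 3 Affymetrix arrays, each holding a biological replicate made from a batch of 40 flies kept at 25 C. Wing pigmentation, scored by eye, set the stage, which makes the age approximate, and no genotype, treatment or second stage was available for comparison. The sex of the flies and the part of the wing sampled were not given in the sources used here, and pooling within a batch hides differences between individuals.

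In the canonical Wingless pathway, the lipid-modified ligand is carried to the cell surface by the membrane protein Wntless, the product of wls. Without ligand, a destruction complex built on the scaffold Axin (Axn) marks the beta-catenin Armadillo for degradation. When ligand is bound by Frizzled and Arrow, the complex is inhibited, Armadillo enters the nucleus and target genes are switched on through the factor encoded by pan. Naked cuticle, the product of nkd, binds Dishevelled and dampens the signal, and nkd is itself a target of the pathway in several fly tissues. In the larval wing disc the pathway patterns the wing margin and promotes growth of the wing pouch.

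Each signal was set against a reference level from its own array, which was the 95th percentile of 87 genes typical of other organs (odorant receptor, eggshell and male accessory gland genes). This level was 109.9 on replicate 1, 109.6 on replicate 2 and 96.5 on replicate 3, in the linear signal units of the deposited table. The test was limma's moderated one-sided test of the mean log2 difference from this level, adjusted by the Benjamini-Hochberg method over all 13647 probe sets, and "above the reference" means an adjusted p under 0.05. Probes differ in how well they hybridise, so an order of signals between genes was not read as an order of expression. Differences from the level were compared between genes only to choose which genes are named and to take medians.

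The genes for ligand secretion and for the destruction complex scaffold were above the reference in the late pupal wing, and the feedback gene was not. Thus 2 of the 3 measured members were called, against 42.1% of all 13647 probe sets. With 3 members, this count is a description and not a statement about the pathway as a whole. In dissected wing tissue, fewer cells expressing a gene and less RNA per cell cannot be told apart.

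wls had signals of 843, 734 and 850.4 on replicates 1, 2 and 3. All 3 arrays lay well over their reference levels, and replicate 2 was the lowest. The mean log2 signal was 9.66 ± 0.12 (SD, n = 3), which was 2.94 ± 0.20 over the reference level on the log2 scale (limma 95% interval 2.49 to 3.39; adjusted p = 0.00031), or 7.68-fold. Its probe set has the suffix _a_at, which marks probes shared by alternative transcripts of the same gene. RefSeq lists 2 transcripts for wls.

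Axn had signals of 641, 647 and 528 on replicates 1, 2 and 3. Again all 3 arrays were over the reference, and replicate 3 was the lowest. The mean log2 signal was 9.24 ± 0.17 (SD, n = 3), which was 2.52 ± 0.06 over the reference level (limma 95% interval 2.15 to 2.89; adjusted p = 0.000292), or 5.73-fold. The SD of the difference was smaller than that of the signal because the reference level was also lowest on replicate 3. The probe set has the suffix _s_at, which marks probes that can hybridise to transcripts of more than 1 gene, although the annotation names Axn alone. RefSeq lists 7 transcripts for Axn, and these were not distinguished.

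nkd had signals of 66.4, 67.0 and 118 on replicates 1, 2 and 3. Replicates 1 and 2 were below their reference levels and replicate 3 was above its own. The mean log2 signal was 6.33 ± 0.48 (SD, n = 3), which was -0.38 ± 0.58 against the reference level (limma 95% interval -1.22 to 0.45; adjusted p = 1.0). The interval includes 0, so these arrays did not resolve on which side of the reference level nkd lay. The difference was -0.72 without replicate 3, -0.21 without replicate 1 and -0.22 without replicate 2. RefSeq lists 3 transcripts for nkd, and its probe set has the plain suffix _at.

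**Figure D1:**
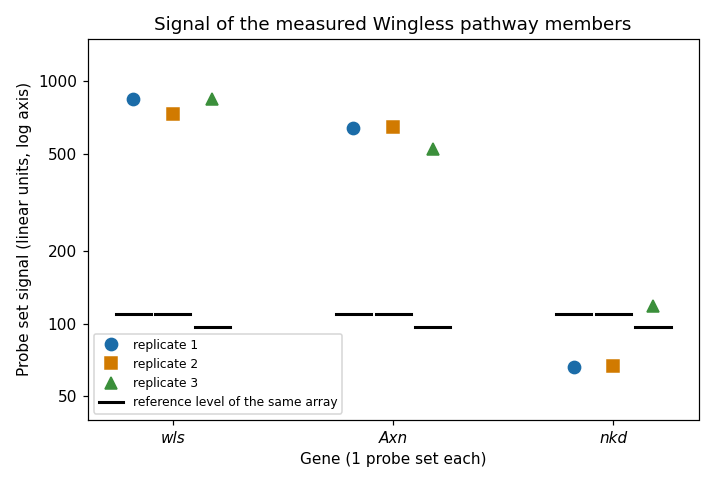
Signal of the probe sets for wls, Axn and nkd (linear units on a log axis) on each of the 3 arrays, with black bars for that array's reference level. The points of wls and Axn lie between 528 and 850.4, above every bar, whereas nkd is above its bar on replicate 3 only.

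The calls of wls and Axn were kept under each alternative reference level, but the distance from the level was not. With the 99th percentile of the same 87 genes as reference, wls was 1.82 and Axn 1.40 over it on the log2 scale (adjusted p = 0.00142 for wls and 0.00246 for Axn). nkd lay at -1.50 with that level and at -0.09 with the 90th percentile.

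The spread of each member between arrays was close to the median of probe sets with a like signal. The SD of log2 signal was 0.12 for wls, beside a median of 0.158 over the 1104 probe sets whose mean lay within 0.5 of it on the log2 scale. It was 0.17 for Axn, beside a median of 0.161 over 1251 such probe sets. For nkd it was 0.48, beside a median of 0.424 over 1559, and 42.1% of those varied more than nkd did. On replicate 3 nkd exceeded the mean of the other arrays by 0.82 on the log2 scale, and 5.39% of probe sets of like signal showed a gap at least as large. The median SD was thus larger at the signal of nkd than at that of wls or Axn. Single probe sets near the reference level departed from this: that of the receptor gene drl had an SD of 0.13.

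**Figure D2:**
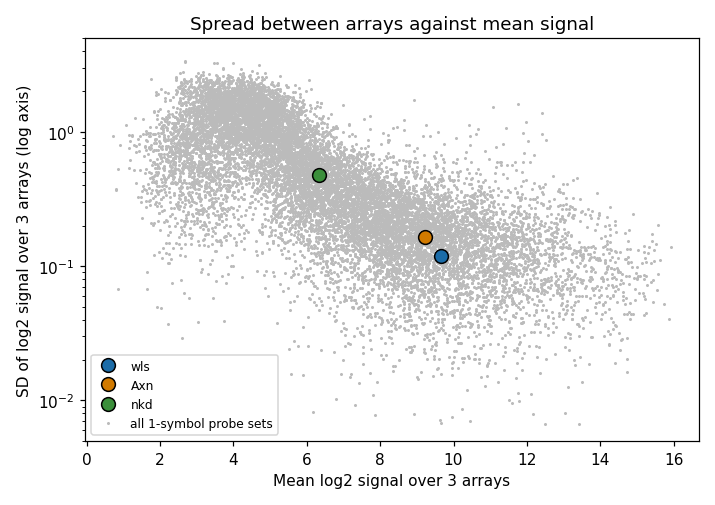
SD of log2 signal over the 3 arrays (log axis) against mean log2 signal for all 13647 probe sets with 1 gene symbol (grey), with wls, Axn and nkd marked. The SDs of the 3 members, 0.12, 0.17 and 0.48, fall within the cloud of probe sets at their signal, and the SD grows towards low signals.

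Other genes of the pathway were taken from a list of 74 genes in 7 roles, of which 54 were measured, 1 (sotv) had only a probe set shared with a second gene, and 19 were not analysed here. Of the 54 measured genes, 35 had at least 1 probe set above the reference, against 45.2% of all 11982 genes counted the same way. The median difference of each gene's best probe set was 2.06 on the log2 scale, against 0.10 over all genes. Called genes made up 0 of 1 among ligands, 1 of 7 among receptors and 7 of 9 in ligand handling. They were 5 of 7 in the glypican and release role and 10 of 10 for Dishevelled, the destruction complex and Armadillo turnover. Among nuclear co-factors they were 9 of 11, and among genes listed as wing targets 3 of 9. Whether the roles differ was not tested.

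Among the other Wnt ligand genes only Wnt6 was measured, and it was not above the reference. Its signals were 3.15, 4.22 and 20.1 on replicates 1, 2 and 3, all far below the reference level, at -4.03 ± 1.54 on the log2 scale (n = 3).

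Of 7 other Wnt-binding receptor genes, drl was above the reference and 6 were not, where 45.2% of all genes were. drl, a Ryk-family receptor known for axon guidance by Wnt5, had signals of 169, 154 and 142 on replicates 1, 2 and 3. This was 0.56 ± 0.07 over the reference on the log2 scale (limma adjusted p = 0.0204), a small distance that all 3 arrays shared. The call was lost when any array was left out (limma adjusted p from 0.0749 to 0.106), and drl lay at -0.57 against the 99th percentile. Its relatives dnt and Drl-2 were not called, with dnt at -0.35 ± 0.57 and the probe sets of Drl-2 at -0.15 ± 0.22 and -1.61 ± 1.64. The Ror-family kinase genes Ror and Nrk lay at -0.54 ± 0.55 and -3.71 ± 0.34. The genes for the PTK7-like co-receptors, otk and otk2, lay at -1.78 ± 1.02 and -0.02 ± 0.33. Of these genes, Ror, dnt, Drl-2 and otk2 each had 1 array above its reference level, so their position relative to it was not resolved.

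Genes that act with wls on the ligand were mostly above the reference, with 7 of 9 called against 45.2% of all genes. The retromer subunit genes Vps26 and Vps35, whose complex recycles Wntless from endosomes, lay 4.74 ± 0.05 and 4.02 ± 0.12 over it on the log2 scale (n = 3; limma adjusted p = 0.000113 for Vps26 and 0.00014 for Vps35). The flotillin genes Flo2 and Flo1, linked to long-range spread of Wingless in the disc, lay 5.49 ± 0.19 and 5.22 ± 0.04 over it. por encodes the acyltransferase that attaches the lipid to Wnt proteins, and its signals were 556, 590 and 439 on replicates 1, 2 and 3, or 2.32 ± 0.12 over the reference. boca encodes the chaperone that folds Arrow-type receptors, and its signals were 614, 626 and 665, or 2.59 ± 0.17 over. por and boca were singled out after their values were seen.

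The exceptions in this role were opm and Cow. opm, a p24 cargo receptor gene implicated in Wingless export, lay at 0.23 ± 0.42. Cow, which encodes a secreted proteoglycan that binds Wingless, had signals of 240, 131 and 155, above the reference level on all 3 arrays. Its difference of 0.69 ± 0.43 did not pass the threshold (limma adjusted p = 0.0544), and it passed in 7 of the 15 other settings.

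Of 7 measured genes for glypicans, heparan sulphate synthesis and ligand release, 5 were above the reference, against 45.2% of all genes. dlp, a glypican that binds Wingless at the cell surface, had signals of 425, 419 and 470.1 on replicates 1, 2 and 3, or 2.06 ± 0.20 over the reference on the log2 scale (n = 3; limma adjusted p = 0.000745). The heparan sulphate genes sgl, which supplies UDP-glucuronate, and botv, which starts the chain, lay 3.38 ± 0.25 and 2.04 ± 0.10 over it, and the 6-O-endosulfatase gene Sulf1 lay 3.90 ± 0.37 over it. sfl, the N-sulfotransferase gene, was not called at -0.78 ± 0.54.

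Notum was the other gene of this role that was not called. It encodes the enzyme that removes the lipid from Wnt proteins and is, like nkd, a feedback target of the pathway in the wing disc. Its signals were 32.3, 40.7 and 41.4 on replicates 1, 2 and 3, each below the reference level, at -1.47 ± 0.27 on the log2 scale (n = 3).

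All 10 measured genes listed for Dishevelled, the destruction complex and Armadillo turnover were above the reference, against 45.2% of all genes. For CkIalpha, Cul1, SkpA, dco, gish, tws and wdb the only calls were on _s_at probe sets. Such probe sets can hybridise to transcripts of more than 1 gene. slmb, the F-box protein that recognises phosphorylated Armadillo, had signals of 13526, 13541 and 14687 on replicates 1, 2 and 3, or 7.05 ± 0.18 over the reference on the log2 scale (n = 3; limma adjusted p = 0.000113). Its partners in the ubiquitin ligase, SkpA and Cul1, lay 6.43 ± 0.15 and 5.29 ± 0.17 over it. CkIalpha, the kinase that primes Armadillo on the Axin scaffold, lay 5.79 ± 0.14 over it. Tnks, the tankyrase that targets Axin for degradation, had signals of 714, 574 and 666 and lay 2.62 ± 0.21 over it (limma adjusted p = 0.000422). Tnks was singled out after its values were seen. Most proteins of this role act in several pathways, so their signals are not specific to Wingless signalling.

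Of 11 measured genes for nuclear co-factors of Armadillo and pan, 9 were above the reference, against 45.2% of all genes. The products of the corepressor genes CtBP and gro hold targets off in the absence of signal. By its better probe set CtBP lay 3.56 ± 0.07 over the reference on the log2 scale (n = 3; limma adjusted p = 0.000154). Its other probe set, 1623869_at, was not called and lay at -1.07 ± 1.15. gro lay 3.46 ± 0.14 over the reference (limma adjusted p = 0.000182). skd, a subunit of the Mediator kinase module, lay 4.10 ± 0.22 over it by its better probe set, and brm, the chromatin remodelling ATPase gene, lay 3.51 ± 0.14 over it. The other probe set of skd, 1630269_s_at, was also called but lay only 0.80 ± 0.30 over the reference. The genes ebd1 and ebd2, whose products assist Armadillo and the pan factor in some cell types, were not called, at -0.11 ± 0.38 and -0.10 ± 1.03.

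Of 9 measured genes listed as targets of the pathway in the wing, 3 were above the reference, against 45.2% of all genes. Dll and vg, regulators of wing pouch development, lay 3.18 ± 0.29 and 2.89 ± 0.14 over it by their best probe sets on the log2 scale (n = 3; limma adjusted p = 0.000372 for Dll and 0.000264 for vg). For Dll, 1636088_at was also called, at 1.96 ± 0.09, and 1625771_at was not, at -0.09 ± 0.31. neur, a ubiquitin ligase gene of the Notch pathway active in sensory precursors, had signals of 329, 419 and 352, or 1.79 ± 0.19 over. The margin gene sens had signals of 1.95, 25.0 and 6.29, and the proneural gene ac had 6.19, 68.1 and 36.8, all below the reference level, at -3.96 ± 1.84 for sens and -2.08 ± 1.83 for ac. The proneural gene sc lay at -1.91 ± 0.93. The margin gene ct had 3 probe sets, none of them called, and 1 of these, 1625385_at, had signals of 171, 119 and 148, above the reference level on all 3 arrays, at 0.46 ± 0.29 (limma adjusted p = 0.0828). Its other probe sets lay at -0.45 ± 0.20 and -1.48 ± 0.50, and ct and sc were singled out after their values were seen. The T-box genes mid and H15, which were on the same list, lay at -4.21 ± 2.11 and -2.07 ± 0.32. Whether these T-box genes are targets of the pathway in the wing was not tested. Dll and vg have further regulators, and their signals do not measure pathway activity.

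**Figure D3:**
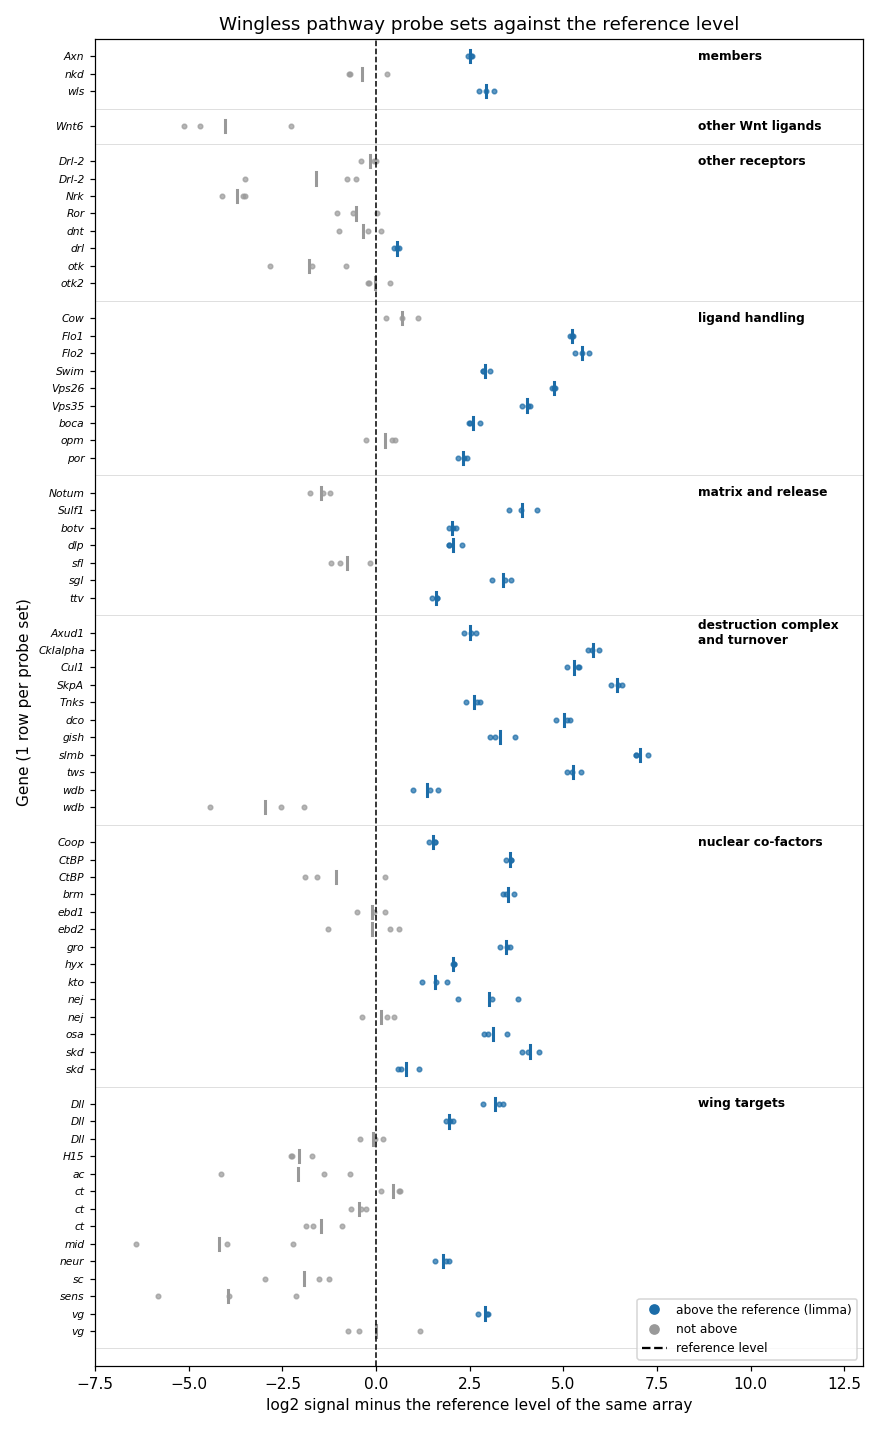
Difference of log2 signal from its own array's reference level for every probe set of the members and of the wider pathway list, grouped by role, with a point for each of the 3 arrays, a bar for the mean and a dashed line at the reference level. Blue probe sets were above the reference by limma and grey ones were not. Receptors and ligands are grey apart from drl. All 10 genes listed for Dishevelled, the destruction complex and Armadillo turnover have a blue row, several of them by _s_at probe sets only.

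Of the 8 wider pathway genes with several probe sets, 5 had probe sets that differed in the call: CtBP, Dll, nej, vg and wdb. For vg, 1623484_at lay at 2.89 ± 0.14 on the log2 scale and 1641470_s_at at -0.0041 ± 1.04. For nej, the gene of the acetyltransferase CBP, 1622925_at lay at 3.02 ± 0.80 and 1637135_at at 0.13 ± 0.45. For wdb, a regulatory subunit gene of protein phosphatase 2A, 1626385_s_at lay at 1.36 ± 0.35 and 1629187_s_at at -2.97 ± 1.31, and against the 99th percentile wdb was no longer called (0.24 over it; limma adjusted p = 0.39). The call of a gene with a second, uncalled probe set rests on the choice of probe set, and which transcripts each probe set detects was not given in the sources used here. wls, Axn and nkd had no second probe set against which to check them.

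The 5 measured wing epidermis markers (vg, nub, ap, bs and salm) each had a probe set above the reference, with 6 of their 9 probe sets called, and 2 of the 3 probe sets of nub, at -0.058 ± 0.14 and -0.86 ± 0.032 on the log2 scale, and 1 of the 2 of vg were not. Of 21 measured genes listed as markers of other cells 9 were called (42.9%), against 45.2% of all genes. limma called 3 of 3 glial, 1 of 5 haemocyte, 1 of 2 tracheal, 2 of 4 muscle and 2 of 3 fat body genes. The genes listed as glial, repo, moody and nrv2, lay at 0.79 ± 0.27, 4.32 ± 0.43 and 4.85 ± 0.19 on the log2 scale. The genes listed as tracheal, Gasp and btl, lay at 6.88 ± 0.21 and -3.98 ± 1.22. Of 4 neuronal genes limma called 0, and 2 of them (elav and para) had an unadjusted p under 0.05. Whether the listed genes mark only these cells in the late pupal wing was not tested, so their calls do not show that such cells were sampled. The part of these cells in the signals of wls, Axn and the other pathway genes was not tested.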

How the data were processed

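The deposited table held probe set signals as linear intensity values, and the submitters' processing notes name MAS5 and RMA with no role, order or version. The intensity values deposited by the authors shared a trimmed mean of 500.0 (2% removed at each end), with array medians of 67.6, 73.3 and 59.7. No genome build is given with the deposited values, and no coordinates are printed. The number of arrays, 3, limits the precision.

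The platform annotation gave 1 symbol to 13647 probe sets, several to 402 and none to 4720. Entrez identifiers of 13544 were found in the RefSeq gene table, which is labelled Release 6, and 0 symbols changed. Log2 signals without further normalization were tested with limma 3.58.1 in R 4.3.3 (lmFit, eBayes), after subtraction of the reference level. That level came from 56 odorant receptor and 31 eggshell or accessory gland genes, each by its probe set with the highest mean. Of their 93 probe sets 1 (Obp56g) was called.

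All member probe sets are named, with all measured ligands and receptors. In other roles, up to 4 called genes with the largest and 4 uncalled genes with the smallest difference are named. The members and lists were chosen with earlier results of these data known, so counts over them are descriptions. The 15 alternatives concerned the level, the scale, the model, the probe sets and the arrays.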

Additional observations from a re-analysis of the deposited data

How the results depend on the processing

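The calls of wls and nkd were the same in all 15 alternative settings and that of Axn in the 14 that tested it, with differences from the reference level of 1.82 to 3.23 for wls, 1.40 to 2.81 for Axn and -1.50 to -0.09 for nkd on the log2 scale. Without _s_at and _x_at probe sets, which removes that of Axn, the count of members above the reference was 1, and that of wider pathway genes was 21 in place of 35, since 14 called genes have calls on such probe sets only. Otherwise the wider count ranged from 31 with the 99th percentile to 37, and it was 34 without each replicate in turn. No paired analysis was possible because all arrays belong to 1 group. Among 772 values of the 54 probe sets of named wider genes, 716 kept their sign and call and 35 changed sign. Of those that kept their sign, 10 lost the call and 11 gained it. The call was also lost, with a change of sign, at the negative values given below for drl and for the skd probe set 1630269_s_at. The changes of sign concern probe sets close to the level. For genes with several probe sets it was the one nearest to the level, except for ct, where it was 1625385_at. With the 99th percentile they were Cow (-0.43), ct (-0.66), drl (-0.57), nej (-0.99), opm (-0.89) and skd (-0.32). With eggshell and male accessory gland genes alone they were Cow (-0.037), ct (-0.27), drl (-0.17), nej (-0.59) and opm (-0.50). With the median plus 1, nej was -0.22 and opm -0.13. With the 90th percentile Dll was 0.20, Drl-2 0.14, ebd1 0.18, ebd2 0.19, otk2 0.27 and vg 0.29. With odorant receptors alone Dll was 0.18, Drl-2 0.13, ebd1 0.17, ebd2 0.18, otk2 0.26 and vg 0.27. vg was 0.023 with quantile normalization and 0.024 with 16 added to the signal. Leaving out each array in turn gave -0.29 to 0.090 for ebd1, -0.45 to 0.49 for ebd2, -0.036 to 0.39 for nej, -0.21 to 0.084 for otk2, -0.23 to 0.072 for Dll and -0.60 to 0.36 for vg. Signal over background limits all genes near the reference level.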

Other observations

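In a few pathway probe sets 1 array stood apart. The nej probe set 1622925_at had a signal of 1519 on replicate 1, against 499.7 on replicate 2 and 817 on replicate 3. The vg probe set 1641470_s_at had 248 on replicate 2, against 65.8 and 70.6 on replicates 1 and 3. The CtBP probe set 1623869_at had 114 on replicate 3, against 36.9 and 29.6 on replicates 1 and 2, and ebd2 had 45.2 on replicate 1, against 168 and 125 on replicates 2 and 3. Groups of 3 arrays were not tested for outliers. These probe sets were chosen after their values were seen.

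Of the 39 called probe sets of the members and the wider list, 17 were highest on replicate 1, 13 on replicate 2 and 9 on replicate 3. Over all 5739 called probe sets the shares were 38.3%, 36.9% and 24.7%, and those of the pathway were 43.6%, 33.3% and 23.1%.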
